A study of Homo sapiens with 4 samples.

Results

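AGR2, MUC13 and SFN are 3 of the 16370 genes listed in the read counts of 4 human hepatoma libraries. They were chosen for their read-out: each was higher in both stem-like cultures than in the line that culture came from, so the HCSC/HCC ratios of the 3 genes are given below as a description and carry no test. The members were found by gene symbol, and each symbol matched 1 row in every library. The parental lines Hep3B and Huh7 are established human hepatoma lines (HCC). Their derivatives, Hep3B-C from Hep3B and Huh7-C from Huh7, carry the label of hepatic cancer stem cells (HCSC); how they were cultured is not given in the sources used here. All 4 were sequenced from total RNA, and the labels name no drug, transgene or sorting step. Each culture had 1 library. An HCSC library was compared first with the library of its own parental line, and culture, library preparation and stem-like state cannot be told apart within a pair.

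AGR2 (anterior gradient 2) is a protein disulfide isomerase of the endoplasmic reticulum that mucus-secreting epithelia need to fold and release mucins, and it is also secreted. MUC13 is a transmembrane mucin of the apical surface of gastrointestinal epithelium. SFN (stratifin) encodes 14-3-3 sigma, the epithelial member of a family of phosphoserine-binding adaptors; it holds the CDK1 and cyclin B complex in the cytoplasm after DNA damage. Hepatocytes of the adult liver normally make little of any of these proteins. All 3 are found at high levels in several carcinomas of the digestive tract.

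The genes lie on different chromosomes. AGR2 (Entrez 10551) is on chromosome 7 (16791811 to 16833433, minus strand, up to 8 exons), MUC13 (Entrez 56667) on chromosome 3 (124905442 to 124953819, minus strand, 12 exons) and SFN (Entrez 2810) on chromosome 1 (26863138 to 26864457, plus strand, 1 exon). These positions are annotation from GENCODE release 29 on GRCh38, while the authors aligned to an earlier genome build. The promoter windows are shown because the genes were picked for their common direction, so that their start regions can be compared. Each window runs from 250 bases before to 50 bases after the RefSeq transcript start on GRCh38.p14, 5′ to 3′ on the strand of the gene, with matches to short motifs in capitals. They lie at chr7:16804950-16805249 (minus strand), chr3:124934702-124935001 (minus strand) and chr1:26862899-26863198 (plus strand). The AGR2 and MUC13 windows lie inside the GENCODE gene spans given above. Each window covers 1 RefSeq start, and any start further upstream was not searched.
AGR2: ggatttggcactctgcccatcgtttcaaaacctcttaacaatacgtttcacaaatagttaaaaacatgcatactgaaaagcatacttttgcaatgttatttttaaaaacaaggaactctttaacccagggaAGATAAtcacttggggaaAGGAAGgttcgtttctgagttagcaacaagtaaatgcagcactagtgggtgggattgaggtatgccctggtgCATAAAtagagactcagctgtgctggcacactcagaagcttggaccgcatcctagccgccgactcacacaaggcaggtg
MUC13: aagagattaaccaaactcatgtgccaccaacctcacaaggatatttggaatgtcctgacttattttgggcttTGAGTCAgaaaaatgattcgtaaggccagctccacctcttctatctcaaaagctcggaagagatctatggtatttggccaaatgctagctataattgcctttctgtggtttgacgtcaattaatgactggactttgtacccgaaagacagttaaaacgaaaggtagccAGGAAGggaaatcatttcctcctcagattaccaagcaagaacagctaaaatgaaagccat
SFN: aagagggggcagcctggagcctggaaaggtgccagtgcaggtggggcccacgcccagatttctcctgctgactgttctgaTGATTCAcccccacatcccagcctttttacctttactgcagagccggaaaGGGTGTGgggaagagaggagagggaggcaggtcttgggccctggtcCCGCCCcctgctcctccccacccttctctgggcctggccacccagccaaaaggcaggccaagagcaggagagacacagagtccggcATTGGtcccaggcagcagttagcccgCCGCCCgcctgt

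The AGR2 and MUC13 windows were AT-rich, with 43.7% and 41.0% GC and 6 and 5 CpG dinucleotides. The SFN window had 63.7% GC and 7 CpG. The median of 27305 RefSeq promoters of the same length was 58.3% GC and 14 CpG, so all 3 windows held fewer CpG than the median promoter. A match to the AP-1 motif TGANTCA was found in MUC13 (TGAGTCA, 178 bases before the start) and in SFN (TGATTCA, 170 bases before it), and 7.76% of all promoters held one on either strand. The ETS core AGGAAG was found in AGR2 (101 bases before the start) and MUC13 (10 bases before it), as in 33.7% of promoters. AGR2 alone held the GATA motif AGATAA (10.5% of promoters) and the CDX motif TTTATG (11.0%). The latter lay on the opposite strand, as CATAAA 29 bases before the start. These letters differ from the TATA box TATAAA only in the first. SFN alone held 2 GC boxes GGGCGG (44.6%), a CCAAT box (35.7%) and the KLF motif CACACCC (7.42%), all on the opposite strand. None of the 3 windows matched the TATA box TATAAA (12%), the FOXA motif TGTTTAC (3.41%), the HNF1 motif (0.033%), the ETS motif GGAAGT (23.2%), the E-box CACGTG (7.43%), the antioxidant response element TGACNNNGC (13.6%) or the palindromic oestrogen response element (0.0659%). No motif of the 14 searched was matched in all 3 windows. A match describes letters in the window, not a bound site.

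Total counts on genes ran from 2896418 in Hep3B to 4641927 in Hep3B-C, and 3 counts, taken as the floor for genes at 0, stood at 0.646 to 1.04 CPM (counts scaled to a library total of 1000000). The hepatocyte identity of the cultures was checked with 18 marker genes, of which 17 were listed in each pair and only CYP3A4 was not. Their summed level was 68500 CPM in Hep3B and 85000 in Hep3B-C (6 genes called up, 3 down), against 60100 in Huh7 and 33800 in Huh7-C (1 up, 7 down). The calls were 35.3% up and 17.6% down in Hep3B-C, beside 13.2% and 30.4% of all genes. In Huh7-C they were 5.88% and 41.2%, beside 4.19% and 4.15% of all genes. The same shares of all genes stand beside the calls in the other marker lists of this paragraph. AFP, the oncofetal albumin-like protein, had 16175 and 4201 counts in the Hep3B pair but 26 and 12 in the Huh7 pair, where ALB had 482 and 1156. Huh7 cells are known to make AFP, so these counts go against the Huh7 label; the labels were used as given, and every comparison between the lineages below rests on them. Markers of other cell types were partly present. Of 12 bile duct markers 10 were listed in each pair (summed level 535 to 988 CPM; 3 up and 4 down in Hep3B-C, 1 up in Huh7-C), with KRT7 at 0 to 2 counts, KRT19 at 212 and 88 in the Hep3B pair but 1 and 7 in the Huh7 pair, and SOX9 between 265 and 600. DCN, ACTA2, CDH5, TEK, PTPRC and CD3E were not listed. Summed fibroblast and stellate markers (6 of 10 listed in each pair) stood between 10.8 and 45.2 CPM (1 down in Hep3B-C, 1 up and 1 down in Huh7-C), with PDGFRB at 186 and 2 counts and COL3A1 at 0 and 58 in the Huh7 pair. Endothelial markers (4 of 8) stood between 3.45 and 22.2 CPM (1 up in each), with PECAM1 at 17 and 93 counts in the Huh7 pair. Summed blood markers (6 and 5 of 10 listed) stood between 187 and 453 CPM (1 up in each), nearly all of it from LYZ and CD68, which are not restricted to blood cells. The part of these levels in the results below was not tested.

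AGR2 had 2 counts in Hep3B and 590 in Hep3B-C, against 575 in Huh7 and 3874 in Huh7-C. Scaled to the library total, it stood at 0.691 CPM in Hep3B (95% exact Poisson interval 0.0836 to 2.49) and 127 CPM in Hep3B-C (117 to 138). In the Huh7 pair it went from 127 CPM (117 to 138) to 894 CPM (866 to 923). AGR2 was thus near the detection limit in Hep3B, and the stem-like Hep3B-C held about the CPM that parental Huh7 already had. The HCSC/HCC ratio was 184 in the Hep3B pair (95% exact conditional interval 50.7 to 1520) and 7.05 in the Huh7 pair (6.46 to 7.71). These intervals cover counting error only, and the difference between the pairs was not tested. On the log2 scale, with 0.5 added to each count, the ratios were 7.20 (Poisson SE 0.91) and 2.82 (SE 0.06). The first ranked 3rd of 15480 genes in the Hep3B pair and the second 212th of 14807 in the Huh7 pair. In bulk cultures a larger share of AGR2-positive cells and more AGR2 RNA per cell cannot be told apart.

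MUC13 had 6 counts in Hep3B and 85 in Hep3B-C, against 182 in Huh7 and 1042 in Huh7-C. These correspond to 2.07 CPM (0.76 to 4.51) and 18.3 CPM (14.6 to 22.6) in the Hep3B pair, and to 40.1 CPM (34.5 to 46.4) and 240 CPM (226 to 255) in the Huh7 pair. Hep3B-C therefore remained below parental Huh7. The HCSC/HCC ratio of MUC13 was 8.84 (3.9 to 24.8) in the Hep3B pair and 5.99 (5.12 to 7.06) in the Huh7 pair, and the difference between the pairs was not tested. The log2 ratios of 3.04 (SE 0.59) and 2.58 (SE 0.12) ranked 239th and 228th.

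SFN had 5 counts in Hep3B and 104 in Hep3B-C, against 20 in Huh7 and 113 in Huh7-C. It stood at 1.73 CPM (0.561 to 4.03) and 22.4 CPM (18.3 to 27.1) in the Hep3B pair, and at 4.41 CPM (2.69 to 6.81) and 26.1 CPM (21.5 to 31.3) in the Huh7 pair. SFN was low in both HCC lines and reached a similar level in both HCSC lines. The HCSC/HCC ratio of SFN was 13.0 (5.39 to 40.8) in the Hep3B pair and 5.92 (3.66 to 10.1) in the Huh7 pair, and the difference between the pairs was not tested. The log2 ratios of 3.57 (SE 0.63) and 2.54 (SE 0.35) ranked 153rd and 236th. The value in Hep3B-C moved with adjustment for transcript properties: the log2 ratio of SFN there was 2.74 with the trend on gene length removed and 1.67 with the trends on GC content and length both removed. The transcript has 62.8% GC, against 41.5% for AGR2 and 44.7% for MUC13. The latter step gave 7.25 for AGR2 and 3.46 for MUC13 in Hep3B-C, and 3.05, 2.59 and 2.70 for AGR2, MUC13 and SFN in Huh7-C.

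**Figure D1:**
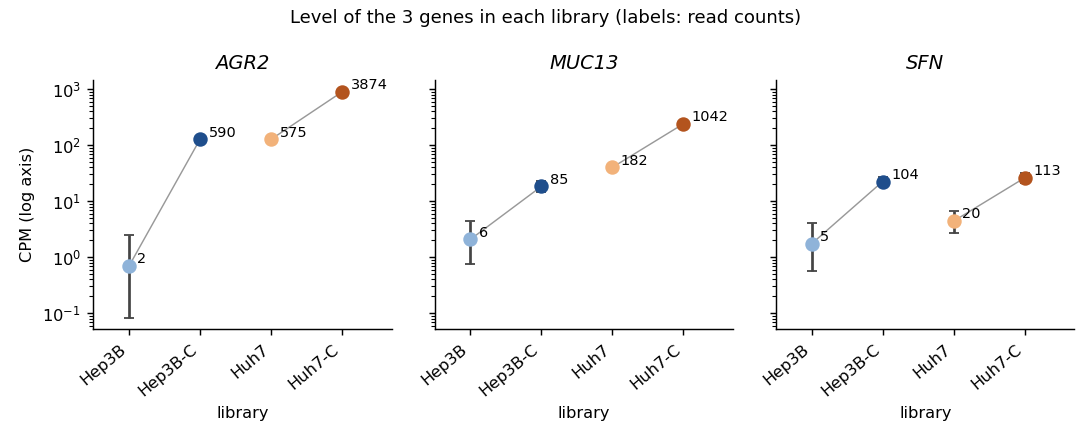
CPM of AGR2, MUC13 and SFN (log axis) in the 4 libraries, with 95% exact Poisson intervals, read counts as labels, and a line joining each HCC line to its HCSC line. All 3 genes sit higher in the HCSC library of each pair, AGR2 has nearly the same CPM in Hep3B-C and Huh7 (127), and SFN differs little between Hep3B-C (22.4) and Huh7-C (26.1).

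The 3 genes differed in how far they separated the parental lines. This contrast was not itself the basis of the choice, but it uses the same counts as the HCSC/HCC ratios that were. Its ratios and ranks are therefore a description too. AGR2 was 184 times higher in Huh7 than in Hep3B (50.6 to 1520), and this log2 ratio ranked 25th of the 13917 genes listed in both pairs. MUC13 was 19.4 times higher in Huh7 (8.73 to 53.5) and ranked 173rd. For SFN the ratio was 2.55, and its interval from 0.93 to 8.71 contained 1. Between the HCSC lines, AGR2 was 7.03 times higher in Huh7-C than in Hep3B-C (6.45 to 7.68) and MUC13 13.1 times higher (10.5 to 16.6). The SFN ratio between the HCSC lines was 1.16 (0.884 to 1.53), a difference not detectable at this depth. Each of these ratios compares 1 library with 1 library of another cell line.

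Levels of different genes were compared per length, as RPKM, the CPM divided by the gene length in kilobases. In Hep3B the 3 genes lay at 0.704 (AGR2), 0.724 (MUC13) and 1.31 RPKM (SFN), on 2 to 6 counts each, and no order among them can be read. In Hep3B-C the order was AGR2 (130 RPKM), SFN (17.0) and MUC13 (6.4). In Huh7 it was AGR2 (129), MUC13 (14) and SFN (3.35), and in Huh7-C AGR2 (911), MUC13 (84.0) and SFN (19.8). AGR2 made up between 84.7% and 89.8% of the summed RPKM of the 3 genes in every library except Hep3B, where it made up 25.7%. The ratio of MUC13 to SFN was 0.376 in Hep3B-C but 4.18 in Huh7 and 4.24 in Huh7-C, so MUC13 and SFN kept their proportion within the Huh7 pair and exchanged places between the lineages. By RPKM, AGR2 was the 84th of 14807 genes in Huh7-C, MUC13 the 932nd and SFN the 3433rd.

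Genes other than the members were called up- or down-regulated with the kind of Poisson test the study used, at a false discovery rate (FDR) of at most 0.01 and a log2 ratio of at least 1 in size. The test weighs the reads of 1 library against those of another, so calls have no replicate check. Hep3B-C had 13.2% of 15480 genes called up and 30.4% down. Huh7-C had 4.19% of 14807 called up and 4.15% down. Of the 13917 genes in both pairs, 0.568% (79 genes) were called up in each, 1.49% down in each and 2.45% in opposite directions. The members were picked from the first of these groups. The median log2 ratio of genes with at least 20 counts in a pair was -0.55 in the Hep3B pair and 0.06 in the Huh7 pair, and TMM scaling raised every log2 ratio in Hep3B-C by 0.60 and lowered those in Huh7-C by 0.04.

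**Figure D2:**
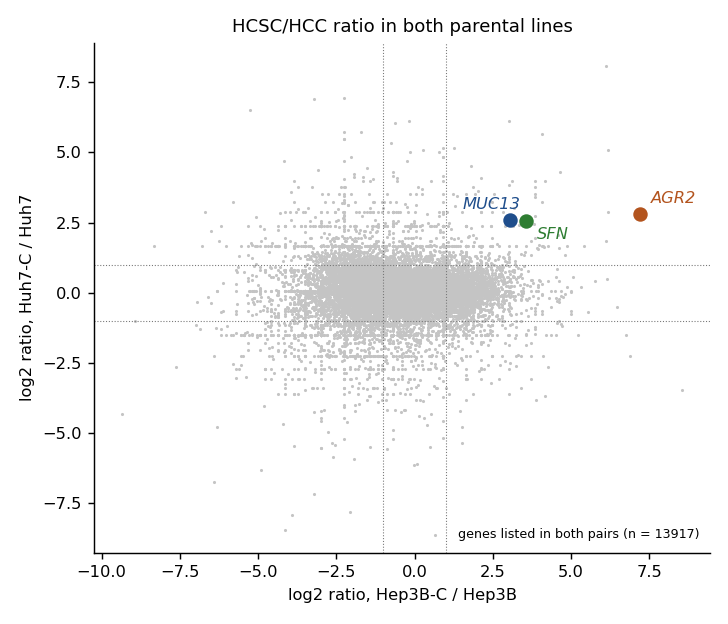
Log2 ratio of Hep3B-C to Hep3B (x axis) against that of Huh7-C to Huh7 (y axis) for the 13917 genes listed in both pairs (grey), with AGR2, MUC13 and SFN coloured and dotted lines at a log2 ratio of 1 and -1. The members lie at 7.20 and 2.82, 3.04 and 2.58, and 3.57 and 2.54, at the upper right edge of the cloud.

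Of the 79 genes up in each pair, 65 had at least 50 counts in a library of each pair. Ranked by the smaller of their log2 ratios, AGR2, MUC13 and SFN were 3rd to 5th, at 2.82, 2.58 and 2.54. Just above them stood CLDN4, a tight junction claudin, at 5.09 and the bilirubin-conjugating enzyme UGT1A1 at 6.12. Among the genes just below them were the tyrosine-catabolic enzyme HPD (2.43), the gastrointestinal glutathione peroxidase GPX2 (2.42), the amino acid transporter SLC43A2 (2.04) and the selenium-binding protein SELENBP1 (1.88). The gap below SFN was small and the gap above AGR2 wide on this scale. Among the HCC lines, HPD and GPX2 had 97 and 69 counts in Hep3B and 29 and 17 in Huh7, the opposite order to that of AGR2 and MUC13.

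For each member, the genes with the most similar course over the 4 libraries were found by the Euclidean distance of log2(CPM + 1), centred on each gene, among 9724 genes with at least 50 counts in a library. Nearest to AGR2 were the metalloproteinase inhibitor TIMP1 (distance 1.89), the protocadherin PCDH1 (2.43) and the corepressor TLE3 (2.51), followed by MUC13 (2.68) and the urea cycle enzyme CPS1 (2.94). TIMP1 had 4 and 391 counts in the Hep3B pair and 1016 and 1294 in the Huh7 pair, where its log2 ratio was 0.42 and it was not called. Nearest to MUC13 were the VIP receptor VIPR1 (0.862), the organic anion carrier SLCO2B1 (1.38), CD99L2 (1.49), the netrin receptor NEO1 (1.54) and NR2C2AP (1.69). VIPR1 had 0 and 11 counts in the Hep3B pair, not called, and 25 and 278 in the Huh7 pair. Among the nearest to SFN were the quinone reductase NQO1 (0.593), FAM203A (0.687), the transcriptional repressor HES6 (0.701) and the GPI-anchored protein LY6E (0.792). NQO1 had 48 and 1033 counts in the Hep3B pair and 191 and 648 in the Huh7 pair, called up in each. SFN stood at 4.52 from AGR2 and 3.11 from MUC13. Counted from SFN, MUC13 was the 4436th and AGR2 the 8730th nearest gene. Counted the other way, SFN was the 131st nearest to AGR2 and the 452nd nearest to MUC13. AGR2 was the 178th nearest to MUC13, so these ranks depend on the gene they are counted from. With 4 points these distances describe the libraries only.

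The gene families of the members were examined next, with each member itself left out of its count. The AGR genes and other thiol-disulfide proteins of the endoplasmic reticulum numbered 26, of which 24 were listed in the Hep3B pair. There 2 were called up and 6 down (8.33% and 25.0%, beside 13.2% and 30.4% of all genes). The median log2 ratio was -0.63 beside -0.55 over all genes (medians here and below are over genes with at least 20 counts). In the Huh7 pair none of 23 was called, beside 4.19% up and 4.15% down of all genes, and the median of the list was -0.22. AGR3, the nearest relative of AGR2 and its neighbour on chromosome 7, was not listed in the Hep3B pair and had 0 and 1 counts in the Huh7 pair. TXNDC12, another relative of AGR2, had 386 and 300 counts in the Hep3B pair (log2 ratio -1.04, SE 0.11, called down, but not with TMM) and 413 and 316 in the Huh7 pair (-0.32, SE 0.11). With TMM the list had 6 genes up and 3 down. With the main scaling, the 2 up-regulated genes were PDIA2, a pancreatic disulfide isomerase, with 2 and 188 counts (ratio 58.7, interval 16.0 to 488), and the peroxiredoxin PRDX4 with 125 and 431 (log2 ratio 1.10, SE 0.15). PRDX4 stood at -0.03 with the GC and length trends removed. ERO1A, the oxidase that recharges disulfide isomerases, fell in Hep3B-C from 1570 to 290 counts (log2 ratio -3.12, SE 0.09), and the thioredoxin-like membrane protein TMX3 from 67 to 15 (-2.80, SE 0.41). The abundant isomerases P4HB and PDIA3 were not called, with log2 ratios of 0.50 and -0.37 in the Hep3B pair and -0.41 and 0.09 in the Huh7 pair, although P4HB was called up in Hep3B-C with TMM (1.09).

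Mucin transcripts other than MUC13 were scarce, apart from CD164 and, in Hep3B, MUC6. Of 20 further genes, 10 were listed in the Hep3B pair and 8 in the Huh7 pair. None was called up in either, beside 13.2% and 4.19% of all genes. The cell surface mucin MUC1 had 5 and 2 counts in the Hep3B pair and 9 and 6 in the Huh7 pair. Of the gel-forming mucins, MUC2 had 2 and 0 counts in the Hep3B pair and 3 and 2 in the Huh7 pair, MUC5AC had 1 and 0 in the Hep3B pair and was not listed in the other, and MUC5B was listed in neither. MUC6, the gel-forming mucin of gastric glands, fell in Hep3B-C from 88 to 18 counts (log2 ratio -2.94, SE 0.37) and was not listed in the Huh7 pair. OVGP1, an oviduct glycoprotein of the mucin nomenclature, fell from 23 to 10 (-1.84, SE 0.54) and from 26 to 5 counts (-2.20, SE 0.68); the former call was lost with TMM. The sialomucin CD164 had more counts than MUC13 in every library except Huh7-C, with 569 and 468 in the Hep3B pair and 351 and 284 in the Huh7 pair. It passed the fold threshold in neither pair (log2 ratios -0.96 and -0.24). MUC4, MUC16, MUC20, MUC21 and EMCN had between 0 and 21 counts per library and no call. In Huh7-C MUC13 therefore held 1042 counts against 303 for the 8 other listed mucins together. In Huh7 it held 182 against 391. In the Hep3B pair it held 6 and 85 counts against 711 and 520 for the 10 others listed there.

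The 6 other genes of the 14-3-3 family were abundant in all libraries and none was called in either pair. Of all genes listed for the Hep3B pair, 13.2% were called up and 30.4% down. The Huh7 pair had only 4.19% of all genes up and 4.15% down. Absence of calls among 6 genes therefore does not set the family apart there. SFN was the scarcest of the 7 in every library: it stood at 17.0 and 19.8 RPKM in the HCSC lines, while the others ranged from 38.3 (YWHAG) to 319 RPKM (YWHAE) in Hep3B-C and from 63.1 (YWHAH) to 391 (YWHAE) in Huh7-C. Their log2 ratios lay between -0.55 (YWHAZ) and -0.17 (YWHAQ) in Hep3B-C, and between -0.47 (YWHAB) and 0.53 (YWHAH) in Huh7-C. With TMM the former range became 0.04 to 0.42, so the sign in Hep3B-C rests on the scaling. Family medians were -0.30 and 0.16. No gene of the family other than SFN approached the ratios of SFN, 13.0 and 5.92.

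**Figure D3:**
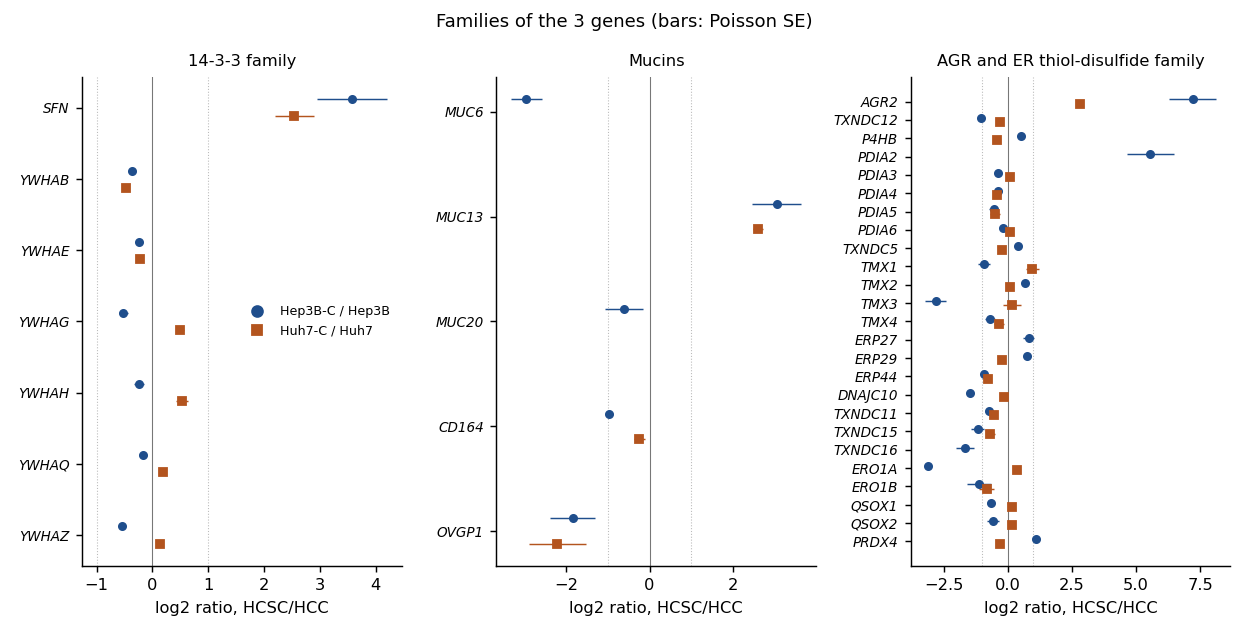
Log2 ratio of HCSC to HCC, with Poisson SE as bars, for genes of the 14-3-3 family, the mucins, and the AGR and ER thiol-disulfide family that had at least 20 counts in a library of the pair (circles, Hep3B pair; squares, Huh7 pair). SFN and MUC13 are alone above a log2 ratio of 1 in their panels, and AGR2 is joined there by PDIA2 and PRDX4 in Hep3B-C only.

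Genes of mucus-secreting epithelium were a list of 32 with the trefoil factors, goblet cell products and their regulators. They gave 3 up and 3 down of 22 listed in the Hep3B pair (13.6% each, beside 13.2% and 30.4% of all genes). In the Huh7 pair they gave 4 up and 1 down of 21 (19.0% and 4.76%, beside 4.19% and 4.15%). Medians were 0.42 and 0.20, and TMM gave 5 up in Hep3B-C. In Hep3B-C the up-regulated genes were the lipocalin LCN2 (21 to 476 counts, ratio 14.1, interval 9.15 to 23.1), the trefoil factor TFF3 (0 to 34 counts, at least 7.07-fold higher against a floor of 3 counts in Hep3B) and the hepatic and intestinal factor FOXA3 (103 to 601 counts, log2 ratio 1.86, SE 0.15). FOXA3 stood at 0.29 with the GC and length trends removed. In Huh7-C they were the adhesion molecule CEACAM6 (2 to 81 counts, ratio 42.4, interval 11.4 to 356), CEACAM1 (18 to 63), the secretory pathway factor CREB3L1 (37 to 127 counts, log2 ratio 1.83, SE 0.27) and the tetraspanin TSPAN8 (14 to 42). No gene of the list was called up in both pairs. BCAS1 was called down in both, with 14 and 3 counts in the Hep3B pair (ratio 0.134, interval 0.0246 to 0.479) and 71 and 20 in the Huh7 pair. FOXA1, a known activator of AGR2, fell from 431 to 211 counts in Hep3B-C (-1.71, SE 0.12) and went from 57 to 36 in Huh7-C (-0.59, SE 0.31, not called). The goblet cell factor SPDEF, the mucin-associated products CLCA1 and ZG16, and OLFM4 were not listed.

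The enzymes of mucin-type O-glycosylation gave 4 up and 7 down of 22 in Hep3B-C (18.2% and 31.8%, beside 13.2% and 30.4% of all genes). In Huh7-C they gave 1 up and 1 down of 22 (4.55% each, beside 4.19% and 4.15% of all genes). Medians were -0.79 and 0.37. Among the polypeptide GalNAc transferases, which start O-glycans, GALNT3 fell in Hep3B-C from 140 to 5 counts (-5.36, SE 0.63), GALNT1 from 555 to 175 (-2.34, SE 0.12) and GALNT4 from 67 to 18 (-2.55, SE 0.38). The branching enzyme GCNT4 fell from 36 to 0 counts, at least 19.2-fold lower. Up-regulated there were the sialyltransferases ST6GALNAC4 (13 to 202 counts, 3.23, SE 0.41) and ST3GAL1 (11 to 115, 2.65, SE 0.45) and the mucin branching enzyme GCNT3 (8 to 71, 2.39, SE 0.52). In Huh7-C only GALNT7 was called up, from 61 to 134 counts (1.20, SE 0.22).

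Cell cycle proteins and regulators tied to 14-3-3 sigma gave 9 up and 11 down of 31 in Hep3B-C (29% and 35.5%, beside 13.2% and 30.4% of all genes). In Huh7-C they gave 3 up and none down of 32 (9.38% up, beside 4.19% up and 4.15% down of all genes). The median was -0.45 in the Hep3B pair, but 0.15 with TMM, which left 4 down, and 0.39 in the Huh7 pair. With GC and length trends removed, 1 was called up in each HCSC line. That gene in Hep3B-C was the CDK inhibitor CDKN1A, which rose from 7 to 295 counts (log2 ratio 4.62, SE 0.53; 3.28 with the trends removed). In Huh7-C CDKN1A had 170 and 137 counts (-0.24, SE 0.17). CDK1, the mitotic kinase held by 14-3-3 sigma, had 170 and 101 counts in the Hep3B pair (-1.43, SE 0.18, not called with TMM) and 39 and 112 in the Huh7 pair (1.58, SE 0.27), opposite calls. WEE1, which holds CDK1 inactive, fell from 506 to 143 counts in Hep3B-C (-2.50, SE 0.14).

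Epithelial differentiation genes, a list of 44, gave 8 up and 15 down of 39 in Hep3B-C (20.5% and 38.5%, beside 13.2% and 30.4% of all genes). In Huh7-C they gave 3 up and none down of 36 (8.33% up, beside 4.19% up and 4.15% down of all genes). Medians of the list were -0.84 and 0.17. CLDN4 was the only gene called up in both (0 to 58 counts, at least 12.1-fold higher, and 5 to 179, ratio 37.5, interval 15.8 to 117). In Hep3B-C the clathrin adaptor AP1M2 rose from 2 to 107 counts (ratio 33.4, interval 9.02 to 279), the desmosomal plakophilin PKP3 from 4 to 175 (4.60, SE 0.69) and the keratin KRT18 from 1903 to 11994 (1.98, SE 0.04). KRT18 stood at 0.56 with the trends removed, and with them removed 4 genes of the list were called up in place of 8 (CLDN4, AP1M2, PKP3 and VIL1). The epithelial factor EHF fell from 213 to 8 counts (-5.33, SE 0.50), the splicing regulator ESRP1 from 638 to 140 (-2.86, SE 0.13) and the desmosomal protein DSP from 8106 to 2030 (-2.68, SE 0.04). In Huh7-C the calcium-binding S100A14 rose from 76 to 236 counts (1.69, SE 0.19). LYPD3 and DAG1, described as binding partners of AGR2, had 9 and 4 counts and 655 and 873 counts in the Huh7 pair, with no call. In the Hep3B pair LYPD3 was not listed and DAG1 fell from 459 to 218 counts (-1.75, SE 0.12).

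Genes of stomach and intestinal lineage, where AGR2 and MUC13 are normally made, gave 2 up and 3 down of 11 in Hep3B-C (18.2% and 27.3%, beside 13.2% and 30.4% of all genes) and 1 up of 10 in Huh7-C (10%, beside 4.19%). The intestinal factor CDX2 had 37 counts in each library of the Hep3B pair and 117 and 89 in the Huh7 pair, with no call (down in Hep3B-C once the trends were removed, -1.90). The intestinal cadherin CDH17 had 2 and 0 counts in the Hep3B pair and 158 and 191 in the Huh7 pair, higher in Huh7 than in Hep3B. The stem cell receptor LGR5 and the factor GATA6 had the opposite order, at 69.7 and 21.4 CPM in Hep3B against 4.63 and 5.07 in Huh7. In Hep3B-C both fell, LGR5 from 202 to 48 counts (-2.74, SE 0.23) and GATA6 from 62 to 9 (-3.40, SE 0.50). The 2 genes called up there were VIL1 and SOX2. VIL1 rose from 649 to 2147 counts (1.04, SE 0.06, and 1.45 with the trends removed). It had 1119 and 559 counts in the Huh7 pair (-0.93, SE 0.07, not called). SOX2 had 0 and 14 counts, was not called with the trends removed, and was not listed in the Huh7 pair. The foregut factor PDX1 rose from 9 to 50 counts in Huh7-C (2.48, SE 0.51). The chloride channel CFTR, a bile duct and intestinal gene, had 0 counts in Huh7 and 80 in Huh7-C, at least 27.9-fold higher, and was not listed in the Hep3B pair.

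Genes next to the members on their chromosomes were compared with them, since position was not used in the choice. Of the 18 protein-coding genes made up of the 3 nearest on each side, 17 were listed in the Hep3B pair, with 4 called up and 6 down, beside 13.2% and 30.4% of all genes. None of the 18 was called in the Huh7 pair, beside 4.19% up and 4.15% down of all genes. Their log2 ratios there ran from -1.07 (KALRN, 27 and 12 counts) to 0.97 (AHR), apart from AGR3 with 0 and 1 counts. Next to AGR2, TSPAN13 had 152 and 123 counts in the Hep3B pair (-0.98, SE 0.17), and the aryl hydrocarbon receptor AHR, further out, fell from 755 to 192 (-2.65, SE 0.12). Next to MUC13, the integrin ITGB5 had 311 and 351 counts (-0.51, SE 0.11) and HEG1 fell from 253 to 47 (-3.10, SE 0.23). Around SFN, 4 neighbours were called up in Hep3B-C: ZDHHC18 rose from 38 to 202 counts (1.71, SE 0.25), GPN2 from 19 to 154 (2.31, SE 0.35), GPATCH3 from 32 to 159 (1.61, SE 0.28) and NUDC from 370 to 2904 (2.29, SE 0.08). They had log2 ratios between -0.63 and 0.41 in Huh7-C. With the GC and length trends removed GPN2 was still called up (1.49), while ZDHHC18, NUDC and GPATCH3 stood at 0.61, 0.81 and 0.18. The other neighbours of SFN, ARID1A and PIGV, had log2 ratios of -0.57 and -0.25 in Hep3B-C.

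**Figure D4:**
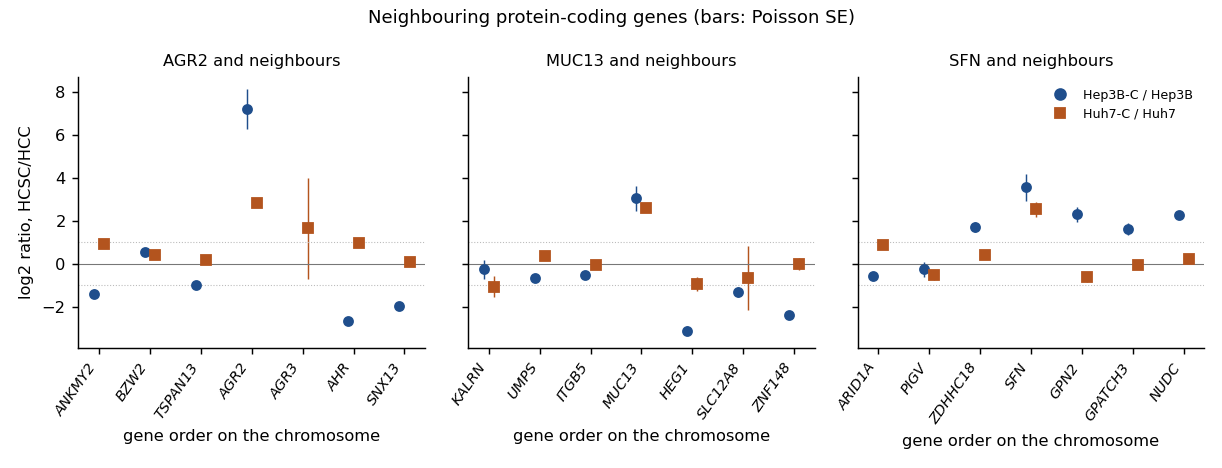
Log2 ratio of HCSC to HCC, with Poisson SE as bars, for each member and the 3 nearest protein-coding genes on each side in chromosomal order (circles, Hep3B pair; squares, Huh7 pair). AGR2 and MUC13 stand above all their neighbours in both pairs, while SFN in Hep3B-C (3.57) is flanked by GPN2 (2.31), NUDC (2.29), ZDHHC18 (1.71) and GPATCH3 (1.61).

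The files annotate the 3 members with few common terms. "Extracellular region" was the only Gene Ontology term that all 3 carried, and it was given to 1119 of 16370 genes (6.84%). AGR2 was the only gene of the files under "mucus secretion". SFN was 1 of 16 genes under "keratinocyte differentiation" and 1 of 32 under "negative regulation of protein kinase activity". MUC13 had no process term. Gene lengths in the files were 981 bases for AGR2, 2861 for MUC13 and 1315 for SFN.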

How the data were processed

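Total RNA of 4 cultures was sequenced on an Illumina Genome Analyzer II, with 1 library per cell line. The authors filtered the reads, aligned them with NextGENe (version not given in the sources used here) to NCBI Build 36.1, and deposited unnormalized read counts as whole numbers for each gene, beside its length in bases. How reads with several matches and strand were treated is not given in the sources used here. Genes without a read in a pair were not listed in its files.

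From the counts, CPM and RPKM were computed with the total gene count. Log2 ratios (HCSC/HCC) had 0.5 added to each count. Each gene was tested with the Audic-Claverie test on the deposited counts (smaller tail doubled, Benjamini-Hochberg over all genes of the pair, FDR 0.01, log2 ratio 1), which was checked on simulated data. Members and lists were chosen with earlier results of these data known. The 14 lists (275 symbols) were joined by Entrez ID through RefSeq. A few genes and 1 list that the rule would name are not reported here. Named genes were the members, their families and, per list, up to 4 called genes per direction and pair with at least 20 counts, not all of which are printed. The genes ranked around the members, their 5 nearest by course and their neighbours were named too, and P4HB, PDIA3, KRT18, VIL1, SOX2, LYPD3 and DAG1 were chosen after their values were seen. Neighbours were taken by order on GRCh38.p14. GC content came from GENCODE 29 transcripts, for 99.2% and 99.3% of the genes with 20 counts in the pairs. Alternatives were TMM (edgeR 4.0.16), DESeq2 1.42.0 size factors, a minimum of 10 counts, an edgeR exact test with an assumed biological coefficient of variation (BCV) of 0.4, 5 added to each count, and removal of spline trends on length, or GC and length. Analyses used Python 3.11.15, scipy 1.17.1 and R 4.3.3. Intervals and floors cover counting error only.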

Additional observations from a re-analysis of the deposited data

Results flagged for a closer look

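Of the 209 genes of the 8 functional lists (marker lists of cell types were left out), 5 with at least 20 counts in a library of each pair were called in opposite directions in Hep3B-C and Huh7-C. Beside them, 2.45% of all 13917 genes in both pairs (341 genes, no count minimum) were called in opposite directions. The difference between the pairs was not tested. The adhesion molecule CEACAM1 had log2 ratios of -2.56 in Hep3B-C and 1.85 in Huh7-C. The kinase CDK1, which 14-3-3 sigma holds in the cytoplasm, had -1.43 and 1.58, and BRCA1, reported to act on the SFN promoter, -1.43 and 1.08. The 14-3-3 client FOXO1 had -2.58 and 1.05, and the sialyltransferase ST6GALNAC6 had 1.02 and -1.50. With TMM, CDK1 and BRCA1 were no longer called in Hep3B-C; with the GC and length trends removed, CDK1, BRCA1 and ST6GALNAC6 were not called in Hep3B-C, nor BRCA1 and FOXO1 in Huh7-C.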

How the results depend on the processing

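All 6 log2 ratios of the members stayed above 0 under the 5 alternatives run for them. In the 6 alternative settings that gave calls, AGR2 in Hep3B-C was called up in 6. AGR2 in Huh7-C, and MUC13 and SFN in each pair, were called up in 5 and lost the call with the assumed BCV of 0.4. These calls use the values the members were chosen by, so they describe the settings and carry no test. SFN in Hep3B-C moved from 3.57 to 2.74 without the length trend and 1.67 without either trend, and AGR2 in Huh7-C to 3.09 (length) and 3.05 (both trends). AGR2 in Hep3B-C ranged from 5.73 with 5 counts added to 7.88 with DESeq2 size factors. The edgeR exact test with an assumed BCV of 0.4, which allows for spread between cultures, gave fewer calls over all genes too. Calls over all genes in Hep3B-C moved with scaling, to 3348 up and 2799 down with TMM and 3549 and 2553 with DESeq2 size factors, from 2043 and 4708. GC and length trends removed gave 728 up, an alternative added after the data were seen for counts of calls. A BCV of 0.4 left 62 up and 169 down in the Hep3B pair and 13 and 12 in the Huh7 pair. Among the 209 distinct genes of the 8 functional lists, 30 up and 48 down in Hep3B-C became 6 and 3 with that BCV, while the 12 and 4 of Huh7-C became 1 and 0. With TMM 29 were down, with DESeq2 size factors 26, and with GC and length trends removed 15 were up. Of the neighbours, 0 were called up and 0 down in Hep3B-C with the BCV, and 2 were called down in Huh7-C with the length trend removed, with or without GC. Since each line had 1 library, the spread between cultures was not measured, and levels resting on 3 counts or fewer are known only within wide counting intervals.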
